A study of Rattus norvegicus with 15 samples.

Results

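The comparison described here set Rat1a cells expressing MYC with the K149R substitution (line R149) against Rat1a cells carrying an empty vector (line EV). Its members were chosen by the labels alone, as the libraries titled with mutant R149 and those titled empty, and made up 6 of the 15 libraries of the series. Rat1a is an immortalized rat fibroblast line grown attached to plastic in high-glucose medium with serum, and the labels enter its cell type as normal primary fibroblasts. R149 cells stably expressed mouse MYC in which a single lysine was replaced by arginine at the residue that K149R names, and EV cells had received the vector without MYC. The remaining lines of the series carried mouse MYC that was unaltered (WT) or bore K158R (R158) or K323R (R323). Each construct was represented by 3 biological replicates of a single stable line as far as the labels say, so the p-values measure the spread between cultures, and what belongs to the construct and what to the derivation of the line cannot be told apart. The labels name no promoter for the constructs, no drug treatment and no time point.

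MYC, a basic helix-loop-helix transcription factor, binds DNA as a dimer with MAX, mostly at E-box sequences near gene starts. In many cell types it is known to raise genes for ribosome production, nucleotide synthesis and metabolism, and to lower genes for cell adhesion, extracellular matrix and growth arrest. Acetyltransferase enzymes, which also serve MYC as coactivators, can add acetyl groups to several of its lysines. Arginine keeps the positive charge of lysine but cannot be acetylated, which is why such substitutions are used to ask what a given lysine contributes. Rat1a cells are a customary host for this question because added MYC transforms them.

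The deposited tables count reads per rat Ensembl gene identifier, without gene names. The reference table used here paired 0 of these identifiers with a symbol, so the level of Myc, the fibroblast markers and the prepared pathway lists could not be read. No promoter or protein sequence could be tied to a gene for the same reason. The genes are therefore described by level, direction and size of change, and 4 of them by identifier.

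The EV libraries held 19185530, 44652491 and 18507149 counts and the R149 libraries 36989944, 43427689 and 108933235. R149 replicate 1 stood apart from the other 5 libraries. It had at least 1 count for 13955 genes, against 15679 to 17150 in EV and 16742 and 17848 in the other R149 replicates. At the smallest library total of the series, 13303631 counts, the number of genes expected to be seen was 13671 in R149 replicate 1, 15331 and 15330 in R149 replicates 2 and 3, and 15390, 15646 and 15573 in EV replicates 1 to 3. All 3 R149 values lay below all 3 EV values, but the R149 mean of 14777 ± 958 (SD, n = 3) was pulled down by replicate 1, and it was 15330 without that library (EV 15536 ± 132). The difference had an exact two-sided permutation p of 0.1, the smallest that 3 libraries against 3 allow, and 0.1 after Benjamini-Hochberg adjustment over 3 such library measures. Results are given below with all libraries and, for the main counts and the genes described by identifier, also without R149 replicate 1. Other values are given without that comparison, which does not mean that they stayed the same.

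R149 cells differed from EV cells in a large part of the transcriptome, and the large changes were mostly falls. Of 13676 genes tested, 2495 were higher in R149 (18.2%) and 2769 were lower (20.2%), together 38.5% at an edgeR adjusted p below 0.05. The typical rise was small and the typical fall larger, with a median log2 fold change of 0.58 among the higher genes and -0.91 among the lower genes, beside 0.0026 over all genes tested. Without R149 replicate 1 these medians were 0.62, -0.94 and -0.0016. By at least 2-fold, 333 genes (2.43%) were higher and 1247 (9.12%) lower. By at least 4-fold the numbers were 63 and 449 (71 and 409 without R149 replicate 1). By at least 8-fold they were 31 and 132 (34 and 120 without R149 replicate 1, and 48 and 157 without EV replicate 1). The fold changes compare each RNA with the rest of its library; no spike-in is mentioned in the labels, so a change in total RNA per cell would not be seen.

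**Figure D1:**
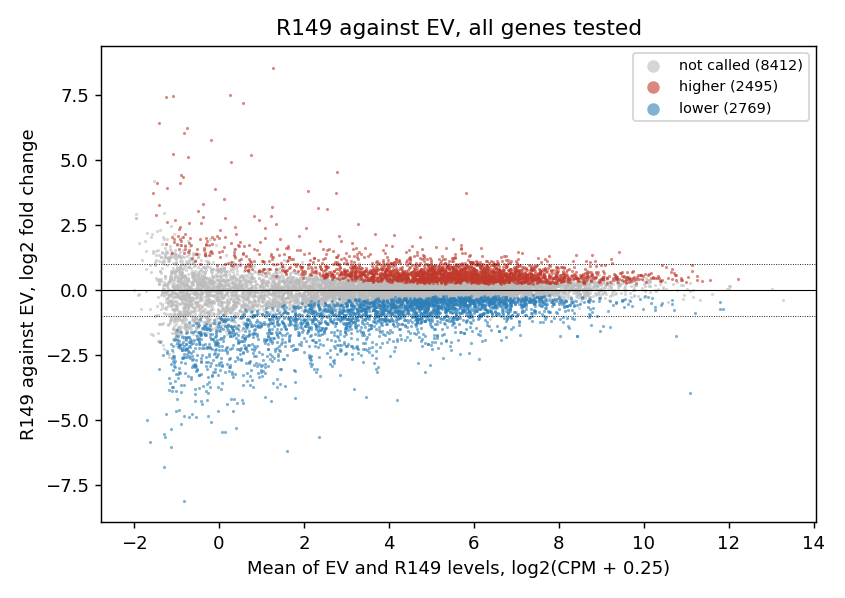
Each point is 1 of 13676 genes tested, with the mean of the EV and R149 levels in log2(CPM + 0.25) across and the log2 fold change of R149 against EV upward; 2495 genes called higher are red, 2769 called lower are blue and the rest grey, and dotted lines mark 2-fold. Falls spread out below the 2-fold line at low and middle levels. Rises at high levels mostly stay inside 2-fold, which 42 of the 962 higher genes of the highest quartile reached.

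Without R149 replicate 1 the count was 4503 genes (32.9% of 13702 tested), of which 1931 (14.1%) were higher and 2572 (18.8%) lower. Changes of at least 2-fold were then called for 310 genes (2.26%) upward and 1209 (8.82%) downward. Of the genes called with all libraries, 1783 of the 2495 higher genes (71.5%) and 2383 of the 2769 lower genes (86.1%) were again called in the same direction, and 0 were called in the opposite one. Among the larger changes the shares were higher, at 300 of the 333 genes up by at least 2-fold (90.1%) and 1192 of the 1247 down (95.6%). A further 148 higher and 189 lower genes were called only when that library was left out. The count of higher genes also depended on EV replicate 3, without which 1647 genes were called higher and 2225 lower. With the replicate 1 libraries of all lines left out, more genes were called, 2937 higher and 3537 lower. The cause of these shifts in number was not tested. When the fit held the R149 and EV libraries alone and left out R149 replicate 1, an alternative added after the data were seen, 2948 genes were higher and 3414 lower. In this fit R149 replicates 2 and 3, which lay close together, supplied the whole R149 spread.

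**Figure D2:**
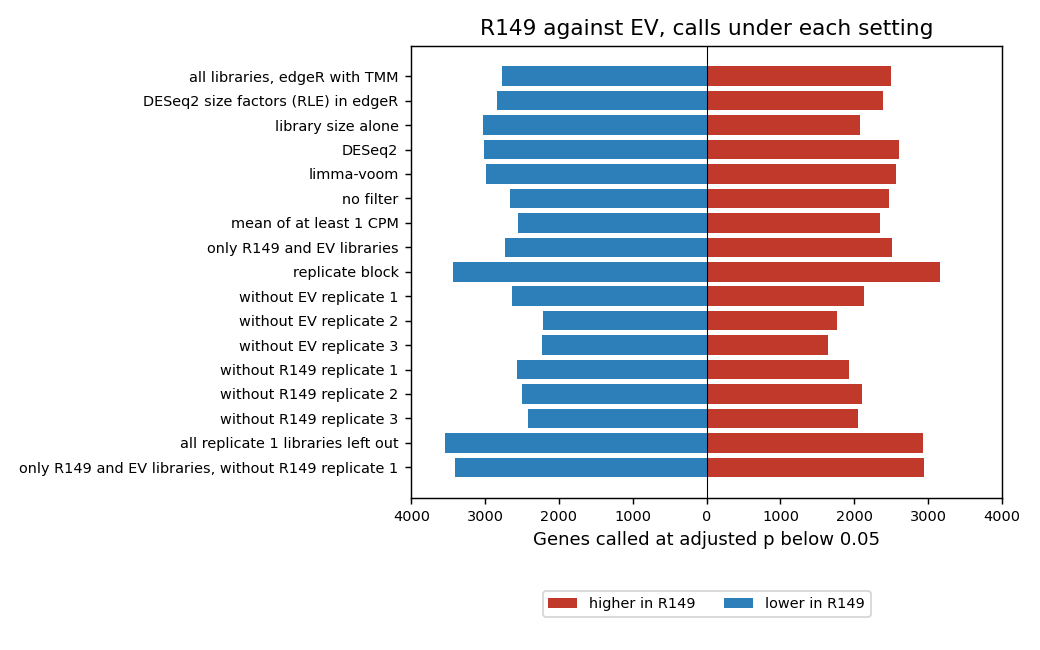
Bars show the number of genes called higher (red, to the right) and lower (blue, to the left) in R149 against EV under the fit of all libraries and 16 other settings. Lower genes outnumber higher genes in each of the 17 settings drawn, and the shortest red bar is the one without EV replicate 3 (1647 genes).

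Among the 6 libraries, R149 and EV were separated completely for most called genes. All 3 R149 libraries lay above all 3 EV libraries in 2436 of the 2495 higher genes (97.6%). They lay below all 3 EV libraries in 2708 of the 2769 lower genes (97.8%). For the genes with at least 2-fold change the numbers were 316 of 333 and 1236 of 1247. Over all 13676 genes tested, the libraries did not overlap in 3610 genes with R149 above and in 3826 with R149 below. Many separated genes were therefore not called. The calls rest on these same R149 and EV libraries, which favours separation, so the shares describe the called genes and are no test of them.

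Direction followed the level of the RNA. Genes were ranked by the average of their EV and R149 levels, which treats both lines alike, and cut into quartiles of 3419 genes; the levels are CPM, that is counts divided by TMM-scaled library size and multiplied by a constant, not corrected for gene length. In the lowest quartile, with a median of 0.963 CPM, 6.41% of genes were higher and 23.2% lower in R149. In the next, at 12.1 CPM, the shares were 16.1% and 23.3%. In the third, at 39.0 CPM, they were 22.3% and 19.5%, and in the highest, at 124 CPM, 28.1% and 15%. Lower genes were the majority in the lower quartiles, and higher genes in the third and the highest. Scaled by library size alone, the third quartile had 18.7% higher and 21.6% lower genes, so that there the majority turned only in the highest quartile. The median log2 fold change of all genes in a quartile went from -0.26 through -0.06 and 0.04 to 0.14. Without R149 replicate 1 it went from -0.2 through -0.05 and 0.03 to 0.09.

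The large changes showed no such turn, since falls of at least 2-fold outnumbered rises in every quartile. They numbered 706 against 154 in the lowest quartile, 328 against 82 and 146 against 55 in the middle quartiles, and 67 against 42 in the highest. The same numbers were 698 against 163, 292 against 71, 138 against 46 and 63 against 28 without R149 replicate 1. Without R149 replicate 1 the shares of higher and lower genes were 6.56% and 23.9% in the lowest quartile, 16.6% and 16.7% in the third, and 19.7% and 13.6% in the highest, so the third quartile was then even. Without EV replicate 3 the share of higher genes was 18.5% in the highest quartile and 3.51% in the lowest. Counting precision rises with level, and its part in these shares was not tested.

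The calls moved a sizeable share of all counts from some genes to others. Genes called higher held 24.2%, 24.1% and 23.2% of the counts in EV replicates 1 to 3, and 34.3%, 32.8% and 33.3% in R149 replicates 1 to 3. Genes called lower held 20.1%, 20.8% and 21.9% in EV and 11.1%, 12.4% and 12.1% in R149. The groups did not overlap, and the means moved by 9.63 percentage points up and -9.06 down. Without R149 replicate 1 these differences were 7.8 and -8.39 points. Over the 16 alternatives they ranged from 7.25 to 11.1 and from -10.3 to -7.9. The called genes were chosen on the same libraries, so the shares describe the size of the change and are no test of it. The gain was spread over many genes, with 192 of the 2495 higher genes needed to make up 50% of it and the 10 largest contributors holding 9.35%. The loss was less even, with 120 of 2769 genes for 50% and 22.8% in the 10 largest.

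A single gene carried 9.12% of that loss. It ranked 2 by count in EV and showed the largest fall in the highest quartile; it was singled out after its values were seen, and is described by rank because only 2 falling identifiers are given. Its level was 7150, 8460 and 10300 CPM in EV replicates 1 to 3 and 511, 586 and 564 CPM in R149 replicates 1 to 3, so that no R149 library came near any EV library. The log2 fold change was -3.96 ± 0.19 (SE), with an edgeR adjusted p of 7.7e-09 and at most 3.1e-06 over the 16 alternatives. It was -3.92 (edgeR adjusted p 2e-07) without R149 replicate 1. In the other MYC lines the gene stood at 706 to 973 CPM in WT, 1020 to 1610 in R158 and 871 to 911 in R323, each range above that of R149. The difference between R149 and R158 passed the edgeR test (adjusted p 0.0012), while those from WT (adjusted p 0.14) and R323 (adjusted p 0.078) did not. In EV the 10 most abundant genes of each library held 5.54%, 5.97% and 6.38% of the counts, against 4.89%, 4.84% and 4.91% in R149 (exact two-sided permutation p of 0.1, the smallest possible, and 0.1 adjusted over 3 measures).

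Genes with at least 2-fold change were of modest level. The 1247 lower genes had a median of 6.06 CPM in EV and 1.75 CPM in R149, and the 333 higher genes of 3.7 CPM in EV and 10.7 CPM in R149, while the median over all tested genes was 24.1 and 22.7 CPM. The lower genes held 4.72%, 4.82% and 5.21% of the counts in EV replicates 1 to 3 and 1.32%, 1.58% and 1.52% in R149. The higher genes held 0.846%, 0.769% and 0.728% in EV and 1.86%, 1.71% and 1.7% in R149. In the libraries of the other MYC lines, both sets stood between the EV and the R149 mean. Those libraries entered the choice of genes only through the filter on low counts, the scaling and the shared estimate of spread. The choice on EV and R149 itself favours such a position. The lower genes held 1.93% ± 0.225 in WT, 2.08% ± 0.186 in R158 and 1.86% ± 0.127 in R323 (SD, n = 3 each), and the higher genes 1.5% ± 0.106, 1.53% ± 0.0306 and 1.6% ± 0.0473.

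**Figure D3:**
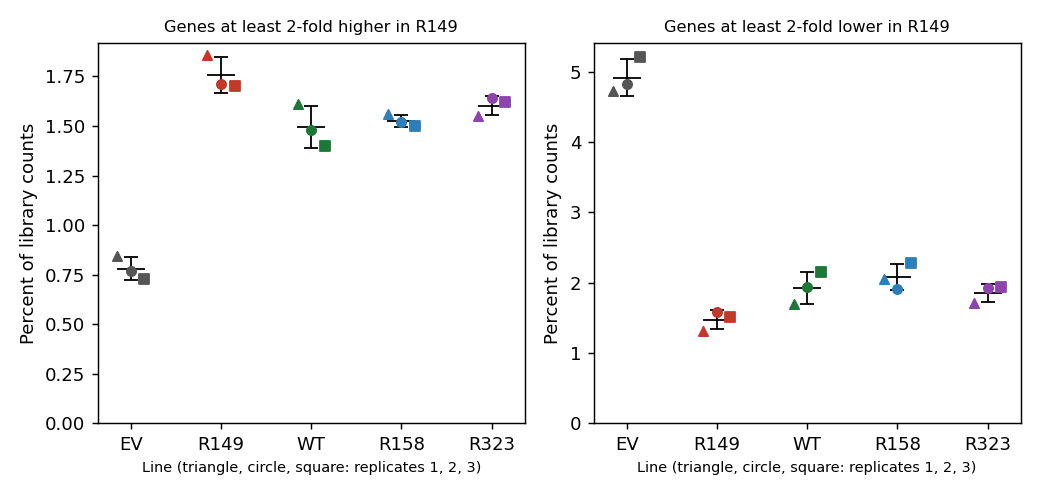
Points give the percent of each library's counts in the 333 genes at least 2-fold higher (left) and the 1247 genes at least 2-fold lower (right) in R149 than in EV, by line and replicate, with the mean and SD over 3 libraries as bars. EV stands far from the 4 MYC lines in both panels, at 4.72% to 5.21% for the lower genes against 1.32% to 1.58% in R149, and the genes were chosen on the EV and R149 libraries shown.

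The falls more often crossed a low level of expression. All 3 EV libraries were at or above 1 CPM and all 3 R149 libraries below it for 245 genes, and the reverse held for 41 genes, while 11255 genes were at or above 1 CPM in all 6 libraries. The number of genes at or above 1 CPM was 12192, 12129 and 12085 in EV replicates 1 to 3 and 11640, 11829 and 11845 in R149. Every R149 library was thus below every EV library, with means of 11771 ± 114 in R149 and 12135 ± 53.8 in EV (SD, n = 3; exact two-sided permutation p of 0.1, adjusted 0.1 over 3 measures). With replicate 1 left out the R149 mean was 11837 genes. The 41 genes became 79 without R149 replicate 1 and 83 without EV replicate 1, but 49 and 42 without R149 replicates 2 and 3 and 51 and 44 without EV replicates 2 and 3. The 245 genes became 294 without R149 replicate 1 and 313 without EV replicate 1.

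The largest rises started from almost nothing in EV. ENSRNOG00000008465 had 3, 1 and 0 counts in EV replicates 1 to 3 and 725, 776 and 2079 in R149 replicates 1 to 3. Its level was 0.0577 ± 0.0818 CPM in EV and 20.5, 17.8 and 19.5 CPM in the R149 libraries, which lay close together. From the summed counts the level was 406-fold higher in R149, or 8.67 on the log2 scale with an exact 95% interval of 7.31 to 10.54 that covers counting error only. The fitted log2 fold change was 8.54 ± 0.37 (SE) with an edgeR adjusted p of 3.2e-09, and 8.48 ± 0.38 without R149 replicate 1. The fitted value was 9.96 without EV replicate 1 and 7.88 without EV replicate 2. Its level in R149 did not differ detectably from WT, R158 or R323, with log2 differences of 0.19 ± 0.19, 0.18 ± 0.19 and -0.12 ± 0.19 (SE).

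ENSRNOG00000015075 showed the next largest rise, and its level differed more between the MYC lines. It had 2, 0 and 0 counts in EV replicates 1 to 3 and 130, 259 and 574 in R149, or 3.68, 5.95 and 5.37 CPM. The R149 libraries lay above every EV library by a wide margin, and replicate 1 was the lowest of the 3. The ratio of summed counts was 218, with an exact 95% counting interval of 60.3 to 1810. The log2 fold change was 7.48 ± 0.84 (SE) with an edgeR adjusted p of 1.3e-05, and 7.65 ± 0.85 (adjusted p 2.3e-05) without R149 replicate 1. Without EV replicate 1, the only EV library with counts, it was 10.41, and without EV replicate 2 it was 6.49. WT libraries were at 0.735, 2.33 and 1.96 CPM and R158 libraries at 0.864, 1.55 and 1.39 CPM, all below R149. The R323 libraries, at 1.18, 3.88 and 4.79 CPM, overlapped with R149. The difference from WT was 1.59 ± 0.48 on the log2 scale and did not pass the edgeR test (adjusted p 0.15), nor did that from R158 (1.94 ± 0.50, adjusted p 0.086). With the replicate number as a block the difference from WT was 1.67 with an adjusted p of 0.0098.

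The fall ranked largest by fitted log2 fold change was a loss of all counts. ENSRNOG00000006978 had 19, 45 and 22 counts in EV replicates 1 to 3, or 0.959, 0.983 and 1.18 CPM, and 0 counts in each of the 3 R149 libraries. The EV libraries lay close together, and the groups were fully separated at a low level. Against a floor of 3 counts summed over the R149 libraries, the level was at least 63.2-fold lower. The fitted log2 fold change of -8.1, and with it the rank, depends on the prior count. By the floor alone the fall could be smaller than the 78.8-fold count ratio of ENSRNOG00000003183. The EV mean of 1.04 CPM was close to the 1 CPM required of named genes. The edgeR adjusted p was 8.9e-05, and 1.8e-04 without R149 replicate 1. The gene was present in WT at 0.354, 1.27 and 1.24 CPM and in R158 at 0.236, 0.67 and 0.349 CPM, and it had 0 counts in the 3 R323 libraries too. R149 was at least 55.9-fold below WT (edgeR adjusted p 0.002) and at least 29.7-fold below R158 (adjusted p 0.0084) on the same floor.

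ENSRNOG00000003183 fell from a higher level. Its EV libraries were at 9.24, 22.8 and 26.2 CPM, with replicate 1 the lowest, and its R149 libraries at 0.283, 0.276 and 0.243 CPM. The spread was thus wide in EV and narrow in R149. The ratio of summed counts was 78.8, with an exact 95% counting interval of 59.1 to 107. The log2 fold change was -6.19 ± 0.58 (SE) with an edgeR adjusted p of 2.6e-06, and -6.24 ± 0.69 (adjusted p 2.1e-05) without R149 replicate 1. Every other MYC line also stood below EV, with 1.5, 5.03 and 5.8 CPM in WT, 1.1, 0.494 and 0.639 CPM in R158, and 0.451, 1.54 and 1.56 CPM in R323. R149 lay below all of these libraries. Its difference from WT was -3.93 ± 0.56 on the log2 scale (edgeR adjusted p 0.002, limma-voom adjusted p 0.055), whereas those from R158 (-1.39 ± 0.69, adjusted p 0.56) and R323 (-2.21 ± 0.61, adjusted p 0.13) did not pass the test.

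**Figure D4:**
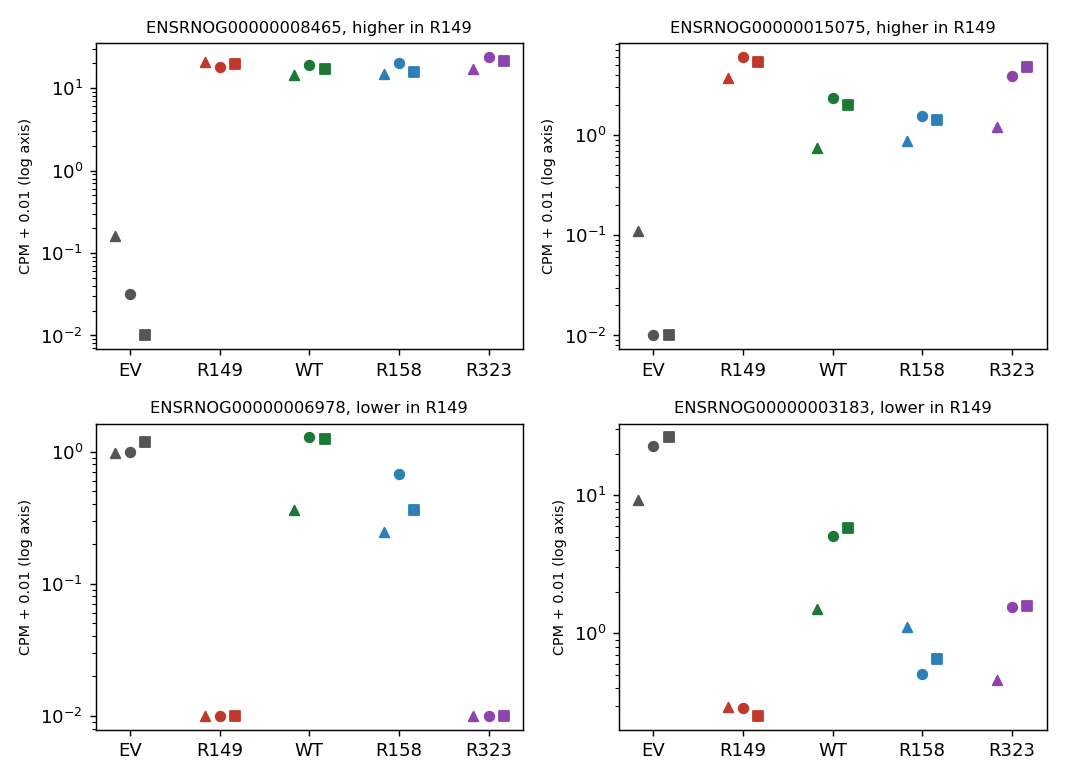
Level of the 4 genes with the largest fitted changes among genes that met the rule for naming, in all 15 libraries, in CPM with 0.01 added on a log axis. Triangles, circles and squares are replicates 1, 2 and 3 of each line. The R149 libraries lie apart from the EV libraries in all 4 panels, and the R323 libraries join R149 at 0 counts for ENSRNOG00000006978.

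R149 replicate 1 can be read as a separate measurement of genes called without it, although the EV libraries are the same. Of the 1931 genes called higher from R149 replicates 2 and 3, 1769 (91.6%) were above all EV libraries in replicate 1 as well, and of the 2572 lower genes 2431 (94.5%) were below all of them. Over all genes tested, replicate 1 was above all EV libraries in 38.7% and below all of them in 43.5%. The median difference from the EV mean, in log2(CPM + 0.25), was 0.65 for the higher genes in replicate 1, 0.60 in replicate 2 and 0.64 in replicate 3. For the lower genes it was -1.0, -0.85 and -0.86, so replicate 1 lay furthest from EV there, and it was the lowest R149 library for 1468 of them (57.1%). Among the 1209 genes lower by at least 2-fold the medians were -1.68, -1.34 and -1.32. With 1 CPM added in place of 0.25 they were -1.2, -1.05 and -1.06, so the distance of replicate 1 depended on the value added. Among the 310 genes higher by at least 2-fold the medians with 0.25 CPM added were 1.09, 1.23 and 1.25, so for these replicate 1 lay nearest to EV. Over all genes tested the medians were -0.04, 0.01 and 0.02.

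The distance of replicate 1 was greatest for RNAs of low level. The SD of the log2 difference between R149 replicates 1 and 2 was 0.959 over the 705 genes between 0.5 and 1 CPM, and 0.277 over the 3500 genes above 64 CPM. Between R149 replicates 2 and 3 it was 0.258 and 0.132 for the same genes. EV had a similar but smaller contrast, in that EV replicates 1 and 2 differed with an SD of 0.606 and 0.202, and EV replicates 2 and 3 with one of 0.381 and 0.125. Replicate 1 was therefore the outlying library within each of these 2 lines, more so in R149. The other lines had their lowest number of genes expected at the smallest library total in replicate 1 too. These numbers were 14858 in WT, 15056 in R158 and 15073 in R323.

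**Figure D5:**
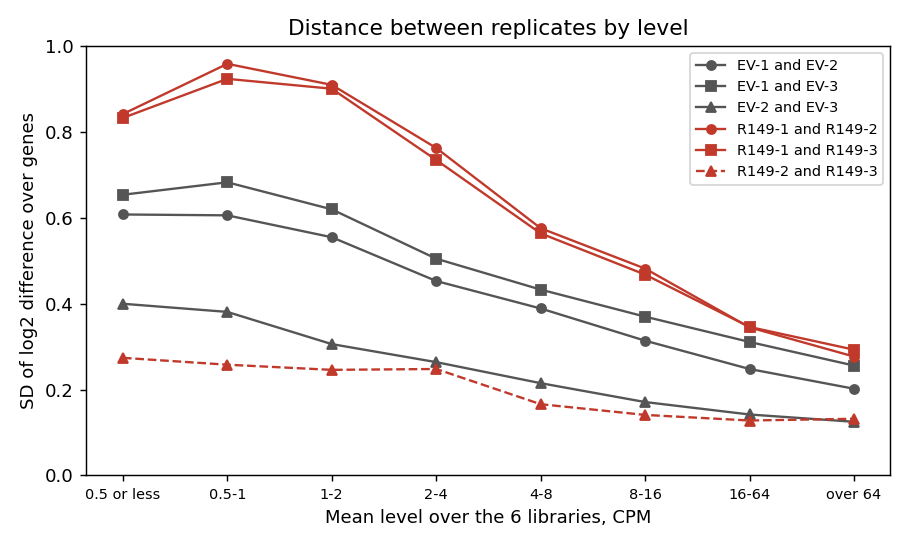
SD of the log2 difference, in log2(CPM + 0.25), between each pair of replicates over the genes of a level class, with the mean CPM over the 6 libraries across; grey lines are EV pairs and red lines R149 pairs, the dashed one without replicate 1. The 2 red pairs that include replicate 1 reach 0.959 and 0.924 between 0.5 and 1 CPM, while the pair of replicates 2 and 3 is at 0.258.

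Some RNAs were missing from R149 replicate 1 altogether. It had 0 counts for 180 genes with at least 10 counts in each of the other 5 libraries, while the same count was 0 for EV replicates 1 and 2 and for R149 replicates 2 and 3, and 2 for EV replicate 3. Exactly 1 count was recorded for 246 genes in R149 replicate 1, against 742 to 1276 genes in the other 5 libraries. The 180 genes had medians of 1.26 to 1.36 CPM in the EV libraries, and of 0.517 and 0.496 CPM in R149 replicates 2 and 3. Their medians were thus lower in the R149 libraries that detected them than in EV. However, 10 counts stand for a higher CPM in EV replicates 1 and 3, which had fewer counts in total, than in R149 replicates 2 and 3. The choice of genes therefore favours levels above R149 in EV, and with them calls of lower genes. Its part was not tested. The other MYC lines had similar medians, of 0.49 to 0.767 CPM in WT, 0.471 to 0.705 in R158 and 0.395 to 0.612 in R323. Of the 180 genes, which were picked for their 0 counts in R149 replicate 1, 107 were called lower in R149 with all libraries, where 20.2% of all genes were, and 110 without replicate 1, where 18.8% were, with a median log2 fold change of -1.94 and -1.47. Within each line, genes at 0 in replicate 1 with at least 10 counts in replicates 2 and 3 numbered 431 for R149, against 7 for EV, 7 for WT, 11 for R158 and 9 for R323. What part these missing RNAs have in the falls of low genes was not tested beyond the values without replicate 1.

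The genes that R149 changed by at least 2-fold against EV were also compared directly between R149 and the other MYC lines. The choice of genes and this difference rest on the same R149 libraries, which favours genes extreme in R149. Of the 1247 lower genes, 92 (7.38%) were lower still in R149 than in WT, 98 (7.86%) than in R158 and 36 (2.89%) than in R323, where 0.994%, 1.0% and 0.892% of all genes were called lower in R149. In the other direction 3, 2 and 7 of these genes were called. Of the 333 higher genes, 7, 15 and 4 were higher in R149 than in WT, R158 and R323, where 0.19%, 0.271% and 0.183% of all genes were called higher. Most genes that R149 changed therefore had no called difference from another MYC line, which does not show that the lines were alike. The median log2 difference of the 1247 genes was -0.46 from WT, -0.53 from R158 and -0.29 from R323.

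These counts depended on the libraries, and so did the share of all genes called lower in R149. Without R149 replicate 1 the lower genes called were 90, 83 and 36 of 1209 for WT, R158 and R323, where 0.941%, 0.81% and 0.708% of all genes were called. Without R149 replicate 2 they were 51, 43 and 23 (0.553%, 0.4% and 0.408% of all genes), and without R149 replicate 3 they were 51, 51 and 19 (0.502%, 0.473% and 0.298%). For WT the number was 170, 48 and 50 without WT replicates 1, 2 and 3, where 2.15%, 0.489% and 0.509% of all genes were called. For R158 it was 60, 64 and 56 without R158 replicates 1, 2 and 3 (0.616%, 0.586% and 0.53%), and for R323 it was 17 and 19 without R323 replicates 2 and 3 (0.357% and 0.351%).

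The higher genes called were few and varied as much. For WT the 7 genes became 19 without WT replicate 1, where 0.444% of all genes were called higher, and 1 without WT replicate 3 (0.0574%). For R158 the 15 genes became 3 without R149 replicate 2 (0.102% of all genes), and for R323 the 4 genes became 7 without R149 replicate 1 (0.182%). With all replicate 1 libraries left out, 106, 54 and 37 of 462 higher genes were higher in R149 than in WT, R158 and R323, where 3.01%, 1.01% and 0.986% of all genes were called. In the same setting 460, 295 and 148 of 1371 lower genes were lower in R149, where 6.57%, 3.53% and 2.98% of all genes were called.

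Deviations from the line mean correlated between libraries of equal number at 0.226 to 0.452 for R149 and WT and 0.295 to 0.433 for R149 and R323. For R149 and R158 the values were 0.463, 0.0701 and 0.132 for replicates 1 to 3. Replicate 1 had the highest value of the 3 numbers in each line. Replicates 2 and 3 gave 0.245 and 0.226 for WT and 0.384 and 0.295 for R323. Some libraries of unequal number had higher values than these. They were 0.361 for WT replicate 2 and R149 replicate 3, and 0.379 for WT replicate 3 and R149 replicate 2. For R323 replicate 3 and R149 replicate 2 the value was 0.396. The 3 deviations of a line cancel out, so replicates 2 and 3 tend to deviate together where replicate 1 stands apart. Pairing by number beyond replicate 1 was thus not shown. With the replicate number as a block, 223 of 1381 lower genes were lower in R149 than in WT and 73 than in R323, where 2.76% and 1.71% of all genes were called. Of 349 higher genes, 36 and 21 were then higher in R149 than in WT and R323, where 0.965% and 0.497% of all genes were called.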

How the data were processed

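Polyadenylated RNA was sequenced as stranded libraries, per the labels' protocols. The authors deposited raw counts per Ensembl gene, without normalization, in a table per library. TopHat2 2.1.0 and the build Rnor_6.0 are named in the submitters' processing notes. How reads were assigned to genes, and on which annotation, is not given in the sources used here, so overlapping genes and near-identical copies are uncertain. Of 32545 genes, 13676 passed filterByExpr (minimum 10 counts) and held 99.9755% of counts. All 15 libraries entered 1 edgeR 4.0.16 quasi-likelihood fit in R 4.3.3 with TMM scaling and the line as the only term, and p-values were adjusted by Benjamini-Hochberg over all genes. The SE was derived from the log2 fold change and the F statistic. Alternatives used limma 3.58.1 (voom), DESeq2 1.42.0, other scalings and filters, and left-out libraries. Named genes had the largest fitted log2 fold changes among genes called with and without R149 replicate 1, at or above 1 CPM in the higher line and without overlap between R149 and EV. Of all genes, 3935 met this. The rule's fallback for unnamed genes allowed 2 rises and 2 falls. The gene lists, members and comparisons were chosen with earlier results of these data known. The fit was tested on simulated data. Replicates of R149 and of EV differed by more than counting noise in every pair (chi-square per degree of freedom of 8.05 to 87.6).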

Additional observations from a re-analysis of the deposited data

Results flagged for a closer look

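The effect of R149 against EV differed from that of another MYC line for both falling genes followed by identifier, by the contrast between the lines in the edgeR fit. Both genes were picked for their large falls in the same R149 libraries, which favours such a difference. For ENSRNOG00000006978 the fitted log2 difference was -7.96 between R149 and WT (adjusted p 0.002) and -6.9 between R149 and R158 (adjusted p 0.0084), with 0 counts in every R149 library, so that these fitted values depend on the prior count. Every R323 library had 0 counts too. For ENSRNOG00000003183 the log2 difference between R149 and WT was -3.93 (adjusted p 0.002), and -3.64 with an adjusted p of 0.055 with limma-voom. Its differences from R158 (edgeR adjusted p 0.56) and R323 (edgeR adjusted p 0.13) did not pass the test. Each line is a single stable line, so construct and line cannot be told apart.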

How the results depend on the processing

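The 4 counts of genes called in R149 against EV (higher, lower and each by at least 2-fold) were recomputed under 16 alternatives, 1 of them added after the data were seen. Lower genes outnumbered higher genes in all of them. Leaving out 1 library at a time gave 1647 to 2125 higher genes, with the lowest value without EV replicate 3, and 2212 to 2633 lower genes. Over all alternatives the 2-fold counts ranged from 255 to 462 higher and 954 to 1381 lower. The 63 higher and 449 lower genes of at least 4-fold, and 31 and 132 of at least 8-fold, were 95 and 585, and 53 and 251, without a filter on low counts. They were 39 and 247, and 19 and 59, among genes with a mean of at least 1 CPM, where fewer low genes were tested. With all replicate 1 libraries left out they were 103 and 415, and 53 and 133. The 4 genes followed by identifier kept their direction and their call against EV in every alternative that tested them, which for ENSRNOG00000006978 were 15. The difference of ENSRNOG00000015075 from WT passed the test with DESeq2 (adjusted p 0.044) and with all replicate 1 libraries left out (adjusted p 0.001); the cause was not tested. The 180 genes missing from R149 replicate 1 were 378 with a minimum of 5 counts in the other libraries and 62 with 20. Replicate numbers were not shown to pair R149 with EV, since libraries of equal number correlated at 0.0823, 0.00334 and 0.0335 in their deviations. With the replicate block 3162 genes were higher and 3429 lower. The prepared lists of named genes could not be counted under any setting, because the identifiers were not paired with symbols. Intervals and floors cover counting error only.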
